A study of Homo sapiens and Mus musculus with 12 samples.

Results

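The experiment described here asked how human cortical organoids differ when NOTCH2NL is knocked out, and it comprises 6 of the 12 RNA-seq libraries of the series, 3 labelled knockout (KO) and 3 labelled wild type (WT). All 6 were chosen by their labels, and all genes of their count table were considered. Both groups derive from H9, an established human embryonic stem cell line, by way of lines made with CRISPR/Cas9, a nuclease directed by a guide RNA. The libraries are called WT1 to WT3 and KO1 to KO3 below, by their replicate numbers. The WT libraries carry the line code H9_WT_E2del19 and the KO libraries H9_KO_E5del42, so 1 KO line is set against 1 WT line, and genotype and line cannot be told apart. Both lines were grown on mouse feeder cells with FGF2 and then differentiated as floating aggregates with SB431542, Dorsomorphin, IWR-1-Endo and Cyclopamine, inhibitors of TGF-beta, BMP, WNT and hedgehog signalling. Each library came from a pool of 5 to 10 organoids harvested at day 28 (week 4). The labels do not say that pools came from separate cultures, so the p-values below measure the spread between pools, which may be technical. In such bulk samples fewer cells of a type and less RNA per cell cannot be told apart.

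NOTCH2NL genes arose by partial duplication of NOTCH2 in the human lineage and encode short proteins with the first EGF-like repeats of the receptor. Notch receptors are activated by ligands on neighbouring cells, are cut within the membrane, and release a fragment that turns on HES and HEY repressors; in cortical development this signalling holds radial glia, the progenitors of the cortex, back from becoming neurons. The NOTCH2NL entry of the table (ENSG00000264343, chromosome 1, 146146203 to 146229026) had 4, 5 and 3 counts in the WT libraries and 0 counts in each KO library. These counts lay under the filter on low counts, and reads of NOTCH2NL can also match NOTCH2, so the entry was not tested. NOTCH2 itself, the full-length receptor, was at 150, 123 and 131 CPM (counts scaled to a common library size with TMM factors) in WT and 149, 177 and 126 in KO, and was not called. Library totals lay between 15381409 and 16382938 counts, so that 3 counts correspond to 0.1831 to 0.195 CPM. Mitochondrial genes took 4.963 to 5.585% of the counts in WT and 5.911 to 6.235% in KO, and ribosomal protein genes 8.412 to 9.573% in WT and 7.204 to 7.82% in KO.

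Across the genome 932 genes (5.5%) differed between KO and WT, of 16956 tested. At an adjusted p under 0.05 (edgeR quasi-likelihood test, Benjamini-Hochberg adjustment over all tested genes), 391 genes were higher in KO (2.31% of those tested) and 541 were lower (3.19%). Most changes were modest: 242 of the higher and 342 of the lower genes changed by less than 2-fold, and the median fold was 1.709 among the higher and 1.718 among the lower genes. Changes beyond 4-fold were found in 53 higher and 57 lower genes. Protein-coding genes held 338 higher and 479 lower genes of 13723 tested, and pseudogenes 9 and 15 of 1082. The number of calls moved with single libraries. It was 1440 without WT1, 499 without WT2, 224 without WT3, 251 without KO1, 506 without KO2 and 526 without KO3. Of the 932 genes 711 lost their call without WT3, 687 without KO1 and 98 without WT1, and 82 higher and 100 lower genes were called in all 6 of these fits. A gene is called stable below where it is one of these 182; for others that are given with values, the libraries without which the call was lost are named.

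**Figure D1:**
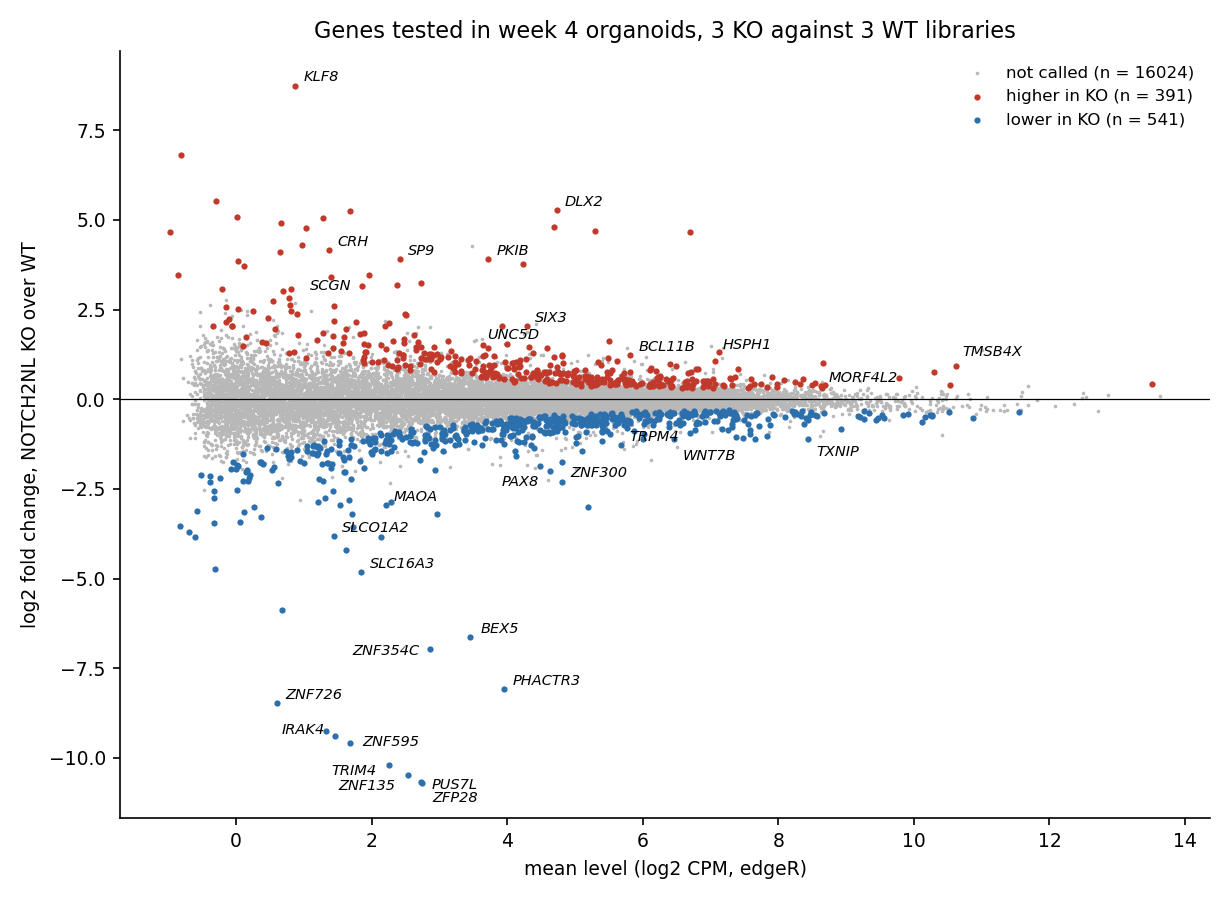
Fold change of each tested gene (log2, KO over WT, y axis) against its mean level (log2 CPM, x axis); each point is 1 gene, red where higher in KO (391), blue where lower (541) and grey where not called. The genes with log2 fold changes beyond -8, among them ZFP28, PUS7L, ZNF135 and TRIM4, lie at the bottom left; KLF8 is the 1 gene beyond 8 at the top.

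The direction of the calls was related to the base composition of the transcripts. Genes were divided into 5 classes of equal size by GC content. In the class of lowest GC content (23.5 to 41%) 3.2% were higher and 1.36% lower in KO, while in the class of highest (57.7 to 75.3%), 0.83% were higher and 5.58% lower. The median log2 fold change ran from 0.08 in the lowest to -0.107 in the highest class. The trend differed between libraries of a group as well. The difference in median deviation between the highest and lowest class was -0.0188, 0.2219 and 0.0866 in the WT libraries and -0.0987, 0.0253 and -0.2014 in the KO libraries, so that the groups overlapped. When the trend of each library was removed with offsets, a choice made after seeing it, 2.31% were higher and 2.14% lower in the lowest class and 2.58% and 3.53% in the highest. Of the called genes 347 higher and 445 lower ones were also called with these offsets. Genes named below kept their call with these offsets unless it is said that they did not.

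**Figure D2:**
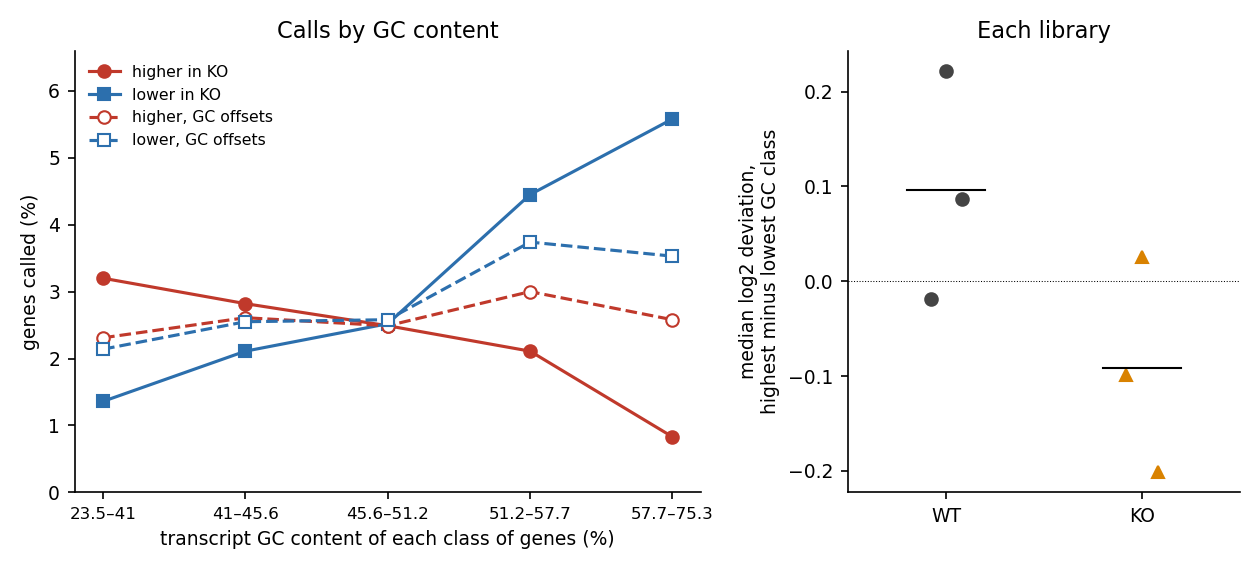
Left, share of genes (%) called higher (red) and lower (blue) in KO by class of transcript GC content (5 classes of equal size), without (filled symbols, solid lines) and with (open symbols, dashed lines) GC offsets; the lower share reaches 5.58% in the class of highest GC and 3.53% with offsets. Right, for each library (circles WT, triangles KO), the median log2 deviation of the highest minus the lowest GC class; bars are group means, and the WT and KO libraries overlap.

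The sharpest differences were genes present in every library of one group and near absent from the other, defined as at most 3 counts over 3 libraries against at least 1 CPM in each of the other 3. Of the 14865 genes at 1 CPM or more in every WT library, 10 were near absent in KO; of the 14806 at that level in every KO library, 2 were near absent in WT. All 12 calls were stable. Of the 10, 5 are zinc finger genes, coding for proteins of the family that binds DNA with C2H2 fingers, and the other protein-coding ones are PUS7L, IRAK4 and TRIM4.

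The sequences at which some of these genes start are shown because no read of the genes was counted in KO; CG dinucleotides, where DNA can be methylated, are in capitals. DNA methylation was not measured. The first stretch lies between the start of PUS7L, on the minus strand, and the start of IRAK4, on the plus strand; the others are the 250 bases before the start of ZNF135 and of ZNF726. They come from RefSeq (GRCh38.p14), plus strand, 5′ to 3′:
PUS7L-IRAK4, chr12:43758818-43758943: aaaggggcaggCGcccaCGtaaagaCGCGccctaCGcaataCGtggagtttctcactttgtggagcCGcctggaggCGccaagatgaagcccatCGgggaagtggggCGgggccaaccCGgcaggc
ZNF135, chr19:58058989-58059238: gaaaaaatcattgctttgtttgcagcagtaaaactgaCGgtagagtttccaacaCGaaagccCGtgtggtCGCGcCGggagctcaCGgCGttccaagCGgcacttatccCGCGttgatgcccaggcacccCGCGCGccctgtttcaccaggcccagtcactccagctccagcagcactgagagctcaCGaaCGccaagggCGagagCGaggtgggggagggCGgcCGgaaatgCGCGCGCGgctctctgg
ZNF726, chr19:23914636-23914885: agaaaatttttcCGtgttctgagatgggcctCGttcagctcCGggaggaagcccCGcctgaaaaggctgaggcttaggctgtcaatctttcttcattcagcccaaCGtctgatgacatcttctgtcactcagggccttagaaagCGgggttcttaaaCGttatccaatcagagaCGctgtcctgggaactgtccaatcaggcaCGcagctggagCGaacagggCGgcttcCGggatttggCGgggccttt
The 126 bases between PUS7L and IRAK4 hold 11 CG, a number reached by 60.0% of the stretches of that length before the starts of 11004 tested genes. In windows of 300 bases around the start (250 before, 50 after), where the median of these genes was 26 CG, ZNF135 has 32, IRAK4 28, ZNF726 16 and ZNF595 12. As many as 32 CG were found in 32.2% of the windows, 28 in 44.9%, 16 in 79.0% and 12 in 84.9%. These letters describe the windows and say nothing of what binds or modifies them.

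PUS7L, which codes for a pseudouridine synthase-like protein, and IRAK4, the kinase that acts first below Toll-like and interleukin-1 receptors, face away from each other on chromosome 12, and both were at 0 in KO. PUS7L had 229, 179 and 200 counts in the WT libraries and IRAK4 87, 86 and 75. PUS7L was thus at least 201-fold and IRAK4 at least 82.0-fold lower in KO, taking 3 counts over the 3 KO libraries as the limit. The edgeR adjusted p was 6.01e-05 for PUS7L and 0.000241 for IRAK4.

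ZFP28, a zinc finger gene on chromosome 19, fell from 220, 207 and 191 counts to 0 in each KO library, at least 204-fold (edgeR adjusted p = 5.04e-05). ZNF135, on the same chromosome, fell from 164, 200 and 171 counts to 0, at least 177-fold. The other zinc finger genes at 0 in KO were ZNF595, at least 95.3-fold lower, ZNF596, at least 74.4-fold, and ZNF726, at least 43.3-fold. ZNF718, the gene next to ZNF595, did not pass the test, with a mean of 7.0 CPM in WT against 9.43 CPM in KO. TRIM4, a member of the tripartite motif family of ubiquitin ligases, fell from 140, 154 and 141 counts to 0, at least 144-fold. In ZFP28, ZNF135, ZNF595, ZNF596, ZNF726 and TRIM4 every WT library stood above every KO library, as the rule that picked them requires. ZNF718 was picked as the tested neighbour of ZNF595, after its values were seen.

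The remaining 2 genes near absent in KO are neighbouring noncoding transcripts on chromosome 4. RP11-11N5.1 had 50, 48 and 39 counts in WT and 1, 0 and 1 in KO, a ratio of 68.0 (95% counting interval 18.5 to 567). RP11-11N5.3 had 28, 18 and 16 counts in WT and 0, 2 and 0 in KO, a ratio of 30.8 (8.16 to 260). Just outside the limit of 3 counts stood PHACTR3, a regulator of protein phosphatase 1 and actin, with 482, 526 and 437 counts in WT and 1, 3 and 1 in KO, and ZNF354C, with 270, 205 and 189 in WT and 4, 0 and 1 in KO.

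In the other direction KLF8, a Krüppel-like transcription factor gene on the X chromosome, had 0 counts in each WT library and 49, 59 and 53 in KO, at least 54.1-fold higher (edgeR adjusted p = 0.000417). CTD-2554C21.2, a transcribed pseudogene on chromosome 19, had 0, 0 and 2 counts in WT and 22, 36 and 23 in KO, a ratio of 40.8 (10.9 to 343). HELT, a HES-related repressor gene, lay just outside with 1, 1 and 2 counts in WT and 35, 41 and 58 in KO. In KLF8 the 3 KO libraries lay close together. In all 3 genes the lowest KO library was above the highest WT library, which the rule itself requires of KLF8 and CTD-2554C21.2.

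**Figure D3:**
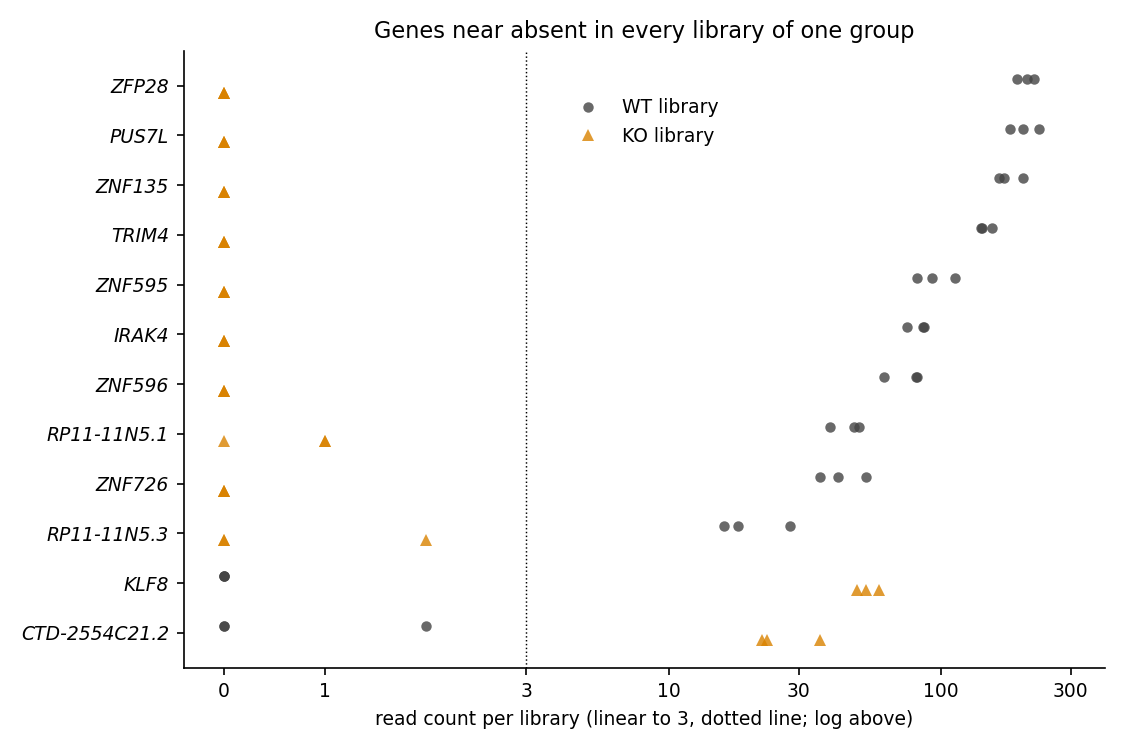
Read counts (x axis, linear up to 3 and logarithmic above) in each WT (circles) and KO (triangles) library for the 12 genes near absent in every library of one group. The WT and KO libraries are separated in each gene, as the rule that picked them requires, and 8 of the 10 genes lost in KO have 0 counts in all 3 KO libraries.

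The genes higher in KO with the smallest p or the largest fold came to 25, KLF8 among them, and 19 were stable. The smallest p of any higher gene belonged to PKIB, an inhibitor of the cyclic AMP-dependent protein kinase, which was at 1.49, 2.01 and 1.39 CPM in WT and 25.5, 25.6 and 22.4 CPM in KO. Its log2 fold change was 3.90 ± 0.19 (SE; edgeR adjusted p = 7.74e-06). UNC5D, a netrin receptor of migrating cortical neurons, rose from 12.4, 14.3 and 12.1 CPM to 36.0, 33.2 and 35.7 CPM, a 2.70-fold change. In both genes the 3 KO libraries were close together and far above WT.

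Several of the most certain rises were about 2-fold in well-expressed genes with little spread. NCOA5, a coregulator of nuclear receptors, was at 60.7, 62.4 and 64.0 CPM in WT and 123, 110 and 121 CPM in KO (log2 fold change 0.92 ± 0.08, edgeR adjusted p = 0.000304). HSPH1, a chaperone of the Hsp110 family, was at 90.5, 77.8 and 91.0 CPM in WT and 194, 163 and 186 CPM in KO. ST8SIA5, a sialyltransferase of brain gangliosides, rose 4.15-fold from 3.82, 7.01 and 6.70 CPM to 24.1, 23 and 25.8 CPM.

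Others were scarce in WT. CRH, the corticotropin-releasing hormone gene, was at 0.13, 0.305 and 0.332 CPM in WT and 4.88, 4.38 and 4.71 CPM in KO (log2 fold change 4.15 ± 0.36, edgeR adjusted p = 0.000241). The first WT value is under the level of 3 counts. SCGN, which codes for the calcium-binding protein secretagogin, was at 0.648, 0.853 and 0.597 CPM in WT and 6.83, 4.96 and 7.10 CPM in KO. SLITRK6, a synaptic adhesion gene, was at 1.04, 0.731 and 1.26 CPM in WT and 7.74, 7.24 and 12.4 CPM in KO. SP9, a transcription factor gene of ventral telencephalic neurons, was at 0.907, 0.305 and 0.73 CPM in WT and 8.13, 7.82 and 13.2 CPM in KO.

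Markers of the ventral telencephalon, where GABA neurons arise, moved with SP9, CRH and SCGN. Of 16 tested members of that list 7 (43.8%) were higher and none lower in KO, with a median log2 fold change of 1.143. When 1 library was left out 4 to 6 were higher, the fewest without KO1. The level summed over all 19 listed genes was 159, 335 and 257 CPM in WT and 516, 476 and 752 CPM in KO. KO3 was the highest library in the list as it was in SP9 and SLITRK6, while the other 2 KO libraries lay close together. The part of such cells in the other changes was not tested. FBXO32, which codes for the ubiquitin ligase subunit atrogin-1, and PTHLH, a parathyroid hormone-like peptide gene, also rose more than 5-fold, but FBXO32 lost its call without WT3, and PTHLH without WT3, KO2 or KO3.

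The genes lower in KO by the same rules came to 22, several of the near-absent genes among them, and 21 were stable. DOCK6, an exchange factor that activates Rac1 and Cdc42, fell from 43.4, 43.8 and 41.9 CPM to 14, 13.6 and 10.6 CPM (log2 fold change -1.76 ± 0.13, edgeR adjusted p = 0.000112). TRPM4, a calcium-activated cation channel gene, fell from 64.9, 80.7 and 72.2 CPM to 32.0, 29.4 and 28.6 CPM. CHCHD2, a mitochondrial protein gene with many processed copies in the genome, fell from 268, 255 and 300 CPM to 117, 134 and 131 CPM, and the counting of its reads is uncertain for that reason. MAOA, which breaks down monoamine transmitters, fell 7.67-fold from 9.59, 5.54 and 8.82 CPM to 1.10, 1.02 and 0.979 CPM. PRPH, the intermediate filament peripherin of peripheral neurons, was at 5.57, 12.2 and 7.16 CPM in WT and 1.30, 1.02 and 1.10 CPM in KO. For each of these 5 genes the lowest WT library was above the highest KO library, as it was for all 541 lower genes.

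The exception among the 22 was DMBX1, a homeobox gene of the midbrain, at 6.54, 21.8 and 13.3 CPM in WT and 1.82, 1.14 and 1.59 CPM in KO. It lost its call without WT3, KO1, KO2 or KO3. SLC16A3, the lactate exporter MCT4, was not among the 22, since 1 WT library was under 5 CPM, and is named as a member of the glycolysis list. It was at 3.95, 6.03 and 10.2 CPM in WT and 0.26, 0.127 and 0.306 CPM in KO (log2 fold change -4.81 ± 0.49, edgeR adjusted p = 0.000534). SLCO1A2, an organic anion transporter, fell 14.1-fold, from 4.86 ± 0.93 CPM to 0.338 ± 0.148 CPM (SD, n = 3 each).

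By chromosome, the X chromosome stood apart in the share of genes that rose. Of its 631 tested genes 41 (6.5%) were higher in KO, against 342 of the 16192 autosomal genes and 0.243 to 3.07% on single autosomes. Its share of lower genes, 26 (4.12%), lay within the autosomal range of 1.56 to 4.87%, and the median log2 fold change over the chromosome was 0.002. With GC offsets 42 X genes (6.66%) were higher, against at most 3.65% on any autosome. In the 6 fits that left out 1 library between 21 and 52 X genes were higher, in each at least 2.13 times the share among all genes tested. This chromosome was singled out after its values were seen, and genes on one chromosome are not independent.

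**Figure D4:**
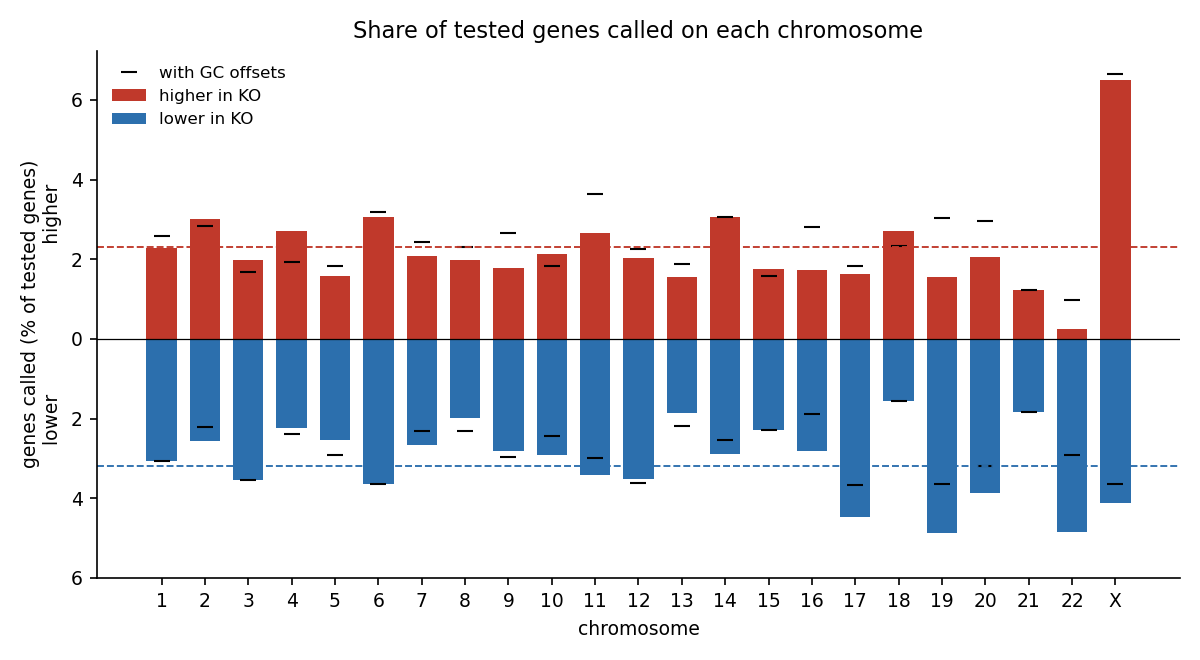
Share of the tested genes of each chromosome that were called higher (red, upward) or lower (blue, downward) in KO; dashed lines are the shares over all tested genes (2.31% and 3.19%), and black marks the shares with GC offsets. The upward bar of the X chromosome (6.5%) stands above those of the autosomes (at most 3.07%), and its downward bar (4.12%) is within their range.

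The X-linked rises were mostly of modest size. TMSB4X, which codes for the actin-sequestering peptide thymosin beta-4, was at 1134, 1030 and 1098 CPM in WT and 2064, 2131 and 1989 CPM in KO (log2 fold change 0.92 ± 0.08, edgeR adjusted p = 0.000309). MORF4L2, a subunit of histone acetyltransferase complexes, was at 261, 268 and 279 CPM in WT and 532, 503 and 579 CPM in KO, a 2.00-fold change. PHF6, a chromatin-associated PHD finger protein gene, was at 57.7, 55.5 and 57.3 CPM in WT and 118, 102 and 118 CPM in KO. In these 3 genes the replicates of a group differed little and the groups were far apart. The median log2 fold change over the 41 genes was 0.923 (quartiles 0.622 and 1.222), against 0.757 (0.52 and 1.277) over the 342 higher autosomal genes, and 20 of the 41 were stable. TMSB4X has near-identical processed copies elsewhere in the genome, and MORF4L2 overlaps the antisense gene MORF4L2-AS1, which was called higher too (not without WT3 or KO1). Whether reads were counted by strand is not stated in the labels, and so the reads of each pair cannot be told apart.

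The rises were dense in one stretch of the chromosome, delimited after the values were seen, from 100 to 140 Mb, where 25 of 196 tested genes (12.8%) were higher and 9 (4.59%) lower. Before 60 Mb 10 of 238 were higher. Within the dense stretch PHF6, HPRT1 and FAM122B, 3 neighbours in a row, all rose. HPRT1, a purine salvage enzyme, was at 17.5, 17.7 and 18.0 CPM in WT and 31.7, 31.3 and 25.1 CPM in KO, and lost its call without WT3 or KO1. FAM122B was at 52.2, 54.9 and 54.1 CPM in WT and 92.8, 101 and 85.7 CPM in KO. RAB33A, a small GTPase gene, rose from 33.0 ± 3.8 CPM to 56.0 ± 4.0 CPM (SD, n = 3). PHF6, FAM122B and RAB33A were stable. DOCK11, MORC4 and AIFM1, picked out after their values were seen, rose 2.37-fold, 1.95-fold and 1.77-fold.

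Falls were interspersed with these rises. BEX5, a small brain-expressed X-linked gene of the same stretch, was at 19.7, 23.7 and 21.0 CPM in WT and 0.065, 0.0635 and 0.489 CPM in KO (log2 fold change -6.62 ± 0.40, edgeR adjusted p = 6.01e-05). Its relative TCEAL3 rose from 20.8 ± 0.9 CPM to 34.2 ± 3.7 CPM and lost its call without KO1. Near the other end of the chromosome, outside the dense stretch, RAB9A, a small GTPase gene of endosomes, fell from 30.2 ± 4.8 CPM to 16.0 ± 0.6 CPM (SD, n = 3).

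Neighbouring genes were called together in few places. Of 16800 pairs of neighbouring tested genes 32 were both higher, 39 both lower and 28 opposite, and 8 runs of 3 or more genes went one way. In the run on chromosome 2 that holds FAR2P1, POTEF and MED15P9 all 3 fell: FAR2P1 from 75.1, 66.4 and 52.2 CPM to 5.92, 7.5 and 10.8 CPM, POTEF 6.96-fold and MED15P9 11.9-fold. FAR2P1 and MED15P9 are pseudogenes and POTEF belongs to a family of close copies, so which copy the reads came from is uncertain. All 3 were stable.

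The run of ISL1, a LIM homeobox gene, with the noncoding transcripts CTD-2089N3.1 and CTD-2314G24.2 on chromosome 5 rose: ISL1 from 1.17, 1.40 and 1.13 CPM to 8.91, 8.58 and 17.8 CPM and CTD-2314G24.2 from 0.648, 0.122 and 0.531 CPM to 4.23, 3.56 and 5.93 CPM. Both were stable, and CTD-2089N3.1 lost its call without WT3. On chromosome 3 FAM131A, CLCN2 and POLR2H fell; CLCN2, a chloride channel gene, fell from 44.8, 67.3 and 62.3 CPM to 26.7, 23.4 and 28.4 CPM and was stable, while FAM131A lost its call without WT2, WT3 or KO1 and POLR2H without these or KO3. The run of HAT1, METAP1D, DLX1 and DLX2 combined changes of unlike size: HAT1, a histone acetyltransferase gene, rose 1.35-fold and METAP1D 1.72-fold, each losing its call without any library but WT1, against 38.5-fold for DLX2, which was stable.

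Gene lists and families were then examined for the members that moved. Of 58 lists of pathways, processes and cell types 14 had no called member, as had 12 of 53 families defined by gene symbols; the counts below are set against 2.31% higher and 3.19% lower over all genes, and the median log2 fold change over all genes was -0.005. The lists were drawn up with earlier results of these data known, so the counts are descriptions.

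**Figure D5:**
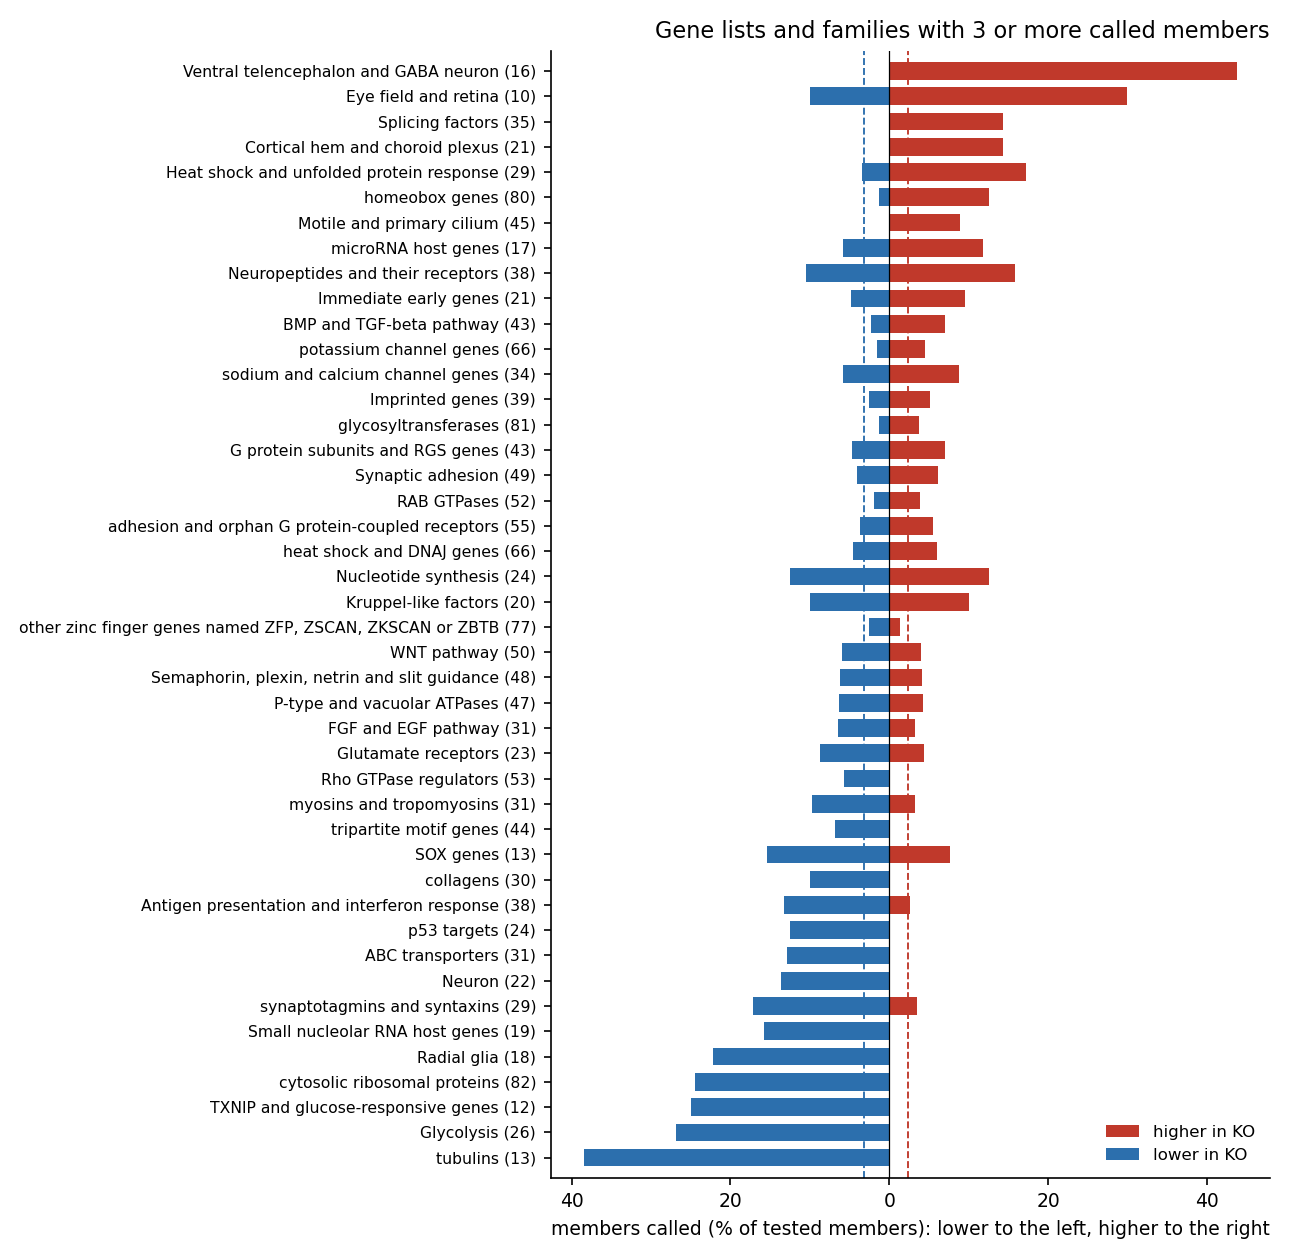
Share of tested members called higher (red, to the right) or lower (blue, to the left) in KO for each gene list or family with 3 or more called members and at most 100 tested ones (their number in parentheses); dashed lines are the shares over all tested genes. The ventral telencephalon list has the longest bar to the right (7 of 16) and tubulins the longest to the left (5 of 13).

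In Notch signalling, 2 of 4 tested receptors, 2 of 14 ligand and fringe genes and 1 of 9 target repressors were lower in KO, 1 of the targets (HELT) was higher, and edgeR called none of 29 processing and nuclear genes (3 at an unadjusted p under 0.05, and 1 called by DESeq2 and 0 by limma-voom). With GC offsets 0 receptors, 1 ligand or fringe gene and 0 target repressors were lower. When 1 library was left out 0 to 1 receptors, 0 to 2 ligand or fringe genes and 0 to 1 target repressors were lower. NOTCH3 fell from 163 ± 4.1 to 128 ± 6.1 CPM and NOTCH1 from 233 ± 29 to 177 ± 7.0 CPM (SD, n = 3), but neither was called with GC offsets, NOTCH3 lost its call without any library but WT1, and NOTCH1 without any but WT2. DLK1, which codes for a ligand-like protein, was at 94.8, 108 and 112 CPM in WT and fell to 63.0, 52.0 and 69.9 CPM in KO and lost its call without WT3. NUMBL, whose protein inhibits Notch, had 57.5, 67.9 and 60.9 CPM in WT against 50.1, 49.1 and 46.4 CPM in KO and was not called (edgeR adjusted p = 0.057).

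Of 50 WNT pathway genes 2 were higher and 3 lower, with 0 to 3 higher and 1 to 4 lower when 1 library was left out. WNT7B, a ligand of the developing cortex, was at 121, 121 and 120 CPM in WT and 62.1, 45.9 and 58.1 CPM in KO (log2 fold change -1.12 ± 0.11, edgeR adjusted p = 0.000417), and was stable. The 3 WT libraries were almost equal and all above the KO libraries. DKK3, a secreted protein gene of the Dickkopf family, fell from 141 ± 22.1 to 77.9 ± 11 CPM and lost its call without WT3. DKK2, another member of that family, was at 0.713, 1.46 and 0.597 CPM in WT and 4.29, 5.66 and 2.88 CPM in KO, and lost its call without WT3 or KO1. Among 17 retinoic acid pathway genes RXRG, a retinoid X receptor, rose from 3.18, 3.96 and 3.32 CPM to 9.43, 10.9 and 8.32 CPM and was stable. Of 14 hedgehog pathway genes edgeR called none, with 4 at an unadjusted p under 0.05, 1 called by DESeq2 and 0 by limma-voom.

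In the BMP and TGF-beta list 3 of 43 genes were higher and 1 lower, and in the FGF and EGF list 1 of 31 higher and 2 lower. CHRD, the secreted BMP antagonist chordin, fell from 11.6 ± 2.8 to 5.14 ± 0.82 CPM and lost its call without WT3, KO1 or KO2. EGF, the epidermal growth factor gene, fell from 3.24 ± 1.13 to 1.10 ± 0.21 CPM and its receptor-family gene ERBB2 from 118 ± 16.1 to 84.2 ± 3.3 CPM, EGF losing its call without any library but WT2 and ERBB2 without any but WT1. The counts of these lists ran from 0 to 7 higher and 0 to 2 lower in the BMP list and from 0 to 1 higher and 0 to 2 lower in the FGF list when 1 library was left out.

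Among transcription factors, the 475 tested genes named ZNF held 19 higher (4.0%) and 17 lower (3.58%) members, with a median log2 fold change of 0.064 and 4 to 31 higher and 12 to 19 lower when 1 library was left out; the lower ones included the near-absent ZNF genes above. ZNF300 fell from 50.7, 43.2 and 45.2 CPM to 13.1, 7.18 and 8.14 CPM, ZNF311 from 5.96, 5.36 and 5.57 CPM to 0.585, 0.127 and 0.183 CPM and ZNF439 from 6.22, 5.42 and 5.44 CPM to 0.975, 0.318 and 0.551 CPM. All 3 were stable. In the other direction ZNF75A rose from 16.9 ± 3.1 to 38.8 ± 1.0 CPM, ZNF585B from 5.62 ± 0.50 to 12.9 ± 1.4 CPM and ZNF404 from 2.98 ± 0.34 to 7.31 ± 0.12 CPM (SD, n = 3), each of them stable and the largest a 2.45-fold change. Reads of zinc finger genes can match several members of a cluster, so single members are uncertain.

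A family of 80 tested homeobox genes, drawn by symbol, included 10 higher and 1 lower. Their median log2 fold change was nonetheless -0.335, and 51 of the 80 had a negative one. The family left out some homeobox genes, among them DMBX1, which was lower as given above. Of the 10, 7 are members of the ventral telencephalon list (DLX1, DLX2, DLX5, DLX6, ISL1, SIX3 and VAX1), and the others include MSX1 and PBX3, the latter named after its value was seen. Of these 10 DLX2, DLX5, ISL1 and SIX3 were stable. DLX1 lost its call without WT1 or KO1, PBX3 without WT2, WT3 or KO1, DLX6 without any library but WT2, and VAX1 and MSX1 without any but WT1. Between 5 and 10 genes of the family were higher and 0 to 5 lower when 1 library was left out. The 1 lower member was PAX8, at 31.8, 51.5 and 34.6 CPM in WT and 9.62, 6.23 and 13.4 CPM in KO, which lost its call without WT3 or KO1. Among 20 Krüppel-like factors KLF8 and SP9 were higher, and KLF10 (45.2 ± 2.0 to 19.4 ± 1.9 CPM) and KLF11 (34.1 ± 2.7 to 19.4 ± 0.3 CPM) were lower, and all 4 were stable. BCL11B, a transcription factor of deep-layer and striatal neurons, rose from 42.4, 24.4 and 33.6 CPM to 77.9, 78.4 and 79.1 CPM and lost its call without WT3.

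Neuropeptide genes moved in both directions. Of 38 tested neuropeptide and receptor genes 6 were higher (15.8%) and 4 lower (10.5%), with a median log2 fold change of -0.119; 2 to 6 were higher and 0 to 6 lower when 1 library was left out. SST, the somatostatin gene, was at 23.8, 17.9 and 24.2 CPM in WT and 56.6, 56.7 and 90.6 CPM in KO (log2 fold change 1.63 ± 0.22, edgeR adjusted p = 0.00717), and was stable, as was CRH. PDYN, the prodynorphin gene, rose from 7.48 ± 2.14 to 17.8 ± 3.9 CPM and lost its call without WT3, KO1 or KO3. NPY rose from 0.152 ± 0.163 CPM, under the level of 3 counts, to 1.32 ± 0.32 CPM and lost its call without any library but WT1. In the other direction ADCYAP1R1, the receptor of the peptide PACAP, fell from 64.5 ± 4.2 to 42.7 ± 2.7 CPM (not without KO1), and NPR2, a natriuretic peptide receptor, from 22.1 ± 1.5 to 13.9 ± 0.4 CPM (not without WT3 or KO1). SST, PDYN and NPY are expressed by GABA neurons among others, and the ventral telencephalon markers moved with them as given above.

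Some genes of the synaptotagmin and syntaxin families fell. Of 29 synaptotagmins and syntaxins 5 were lower (17.2%) and 1 higher, with a median log2 fold change of -0.092 and 3 to 6 lower when 1 library was left out. SYT13 fell from 88.0 ± 4.9 to 53.6 ± 0.7 CPM and SYT11 from 273 ± 21.8 to 186 ± 6.8 CPM (SD, n = 3), and both were stable. SYT7, a calcium sensor of release and exocytosis, fell from 43.1 ± 4.7 to 26.5 ± 1.1 CPM (not without KO1), and SYT14 rose from 19.8 ± 2.8 to 33.8 ± 2.5 CPM (not without WT3). Tubulins, the subunits of microtubules, had 5 of 13 members lower (38.5%) and none higher, and 12 of 13 had a negative fold change, with a median log2 of -0.362. TUBA1C fell from 88.3, 77.1 and 97.7 CPM to 35.9, 43.6 and 43.3 CPM and was stable. TUBB4A and TUBB6 lost their call without WT3 or KO1. TUBB3 and TUBB2A, the latter named after its value was seen, lost theirs without any library but WT1, and with GC offsets. Between 1 and 6 tubulins were lower when 1 library was left out. Tubulin genes are similar in sequence, and reads may have been divided among them.

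Of 48 guidance genes of the semaphorin, plexin, netrin and slit families 2 were higher and 3 lower, and of 49 synaptic adhesion genes 3 were higher and 2 lower. When 1 library was left out 1 to 4 guidance genes were higher and 0 to 7 lower, and 1 to 3 adhesion genes were higher and 0 to 3 lower. Besides UNC5D and SLITRK6, FLRT2, an adhesion protein gene of migrating neurons, rose from 26.4 ± 3.2 to 53.9 ± 11.9 CPM (not without WT3). NTNG2, a membrane-bound netrin gene, fell from 20.2 ± 1.1 to 11.2 ± 2.4 CPM (not without WT2 or WT3), and SLIT1, a repulsive guidance ligand, fell from 307 ± 64.6 to 151 ± 31.6 CPM and was not called with GC offsets or without WT2, WT3, KO1 or KO2. EPHA4, an ephrin receptor gene, rose from 78.5 ± 15.5 to 141 ± 17.2 CPM (not without WT3 or KO1). Among 39 clustered protocadherins, the cell surface labels of neurons, PCDHB5 rose from 2.75 ± 0.61 to 8.14 ± 1.01 CPM and PCDHGC3 fell from 28.6 ± 5.4 to 11.8 ± 0.8 CPM, and both were stable; gamma protocadherins share 3′ exons, so the assignment of reads to PCDHGC3 is uncertain.

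Among channels and carriers, 3 of 66 potassium channel genes were higher and 1 lower, and of 258 solute carriers 8 were higher (3.1%) and 15 lower (5.81%). When 1 library was left out 1 to 3 potassium channel genes were higher and 0 to 3 lower, and 1 to 13 solute carriers were higher and 3 to 19 lower. KCNA5 rose from 1.18 ± 0.25 to 3.97 ± 0.78 CPM and was stable. SLC25A14, a mitochondrial carrier gene on the X chromosome, rose from 35.1 ± 2.1 to 53.7 ± 1.4 CPM and was stable. SLC5A6, the multivitamin transporter, rose from 75.8 ± 6.8 to 127 ± 23.9 CPM and lost its call without WT3 or KO1. Among 31 ABC transporters 4 were lower and none higher, with 0 to 4 lower when 1 library was left out; ABCG4, a sterol transporter of neurons, fell from 11.1 ± 0.8 to 5.66 ± 0.37 CPM (not without KO1). ATP2B4, a plasma membrane calcium pump, fell from 191 ± 11.3 to 129 ± 9.1 CPM and was stable.

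Some genes of sugar use were lower. Of 26 glycolysis genes 7 were lower (26.9%) and none higher, with a median log2 fold change of -0.206, between 4 and 6 lower when 1 library was left out, and 5 with GC offsets. ALDOC, the brain aldolase, was at 36.2, 28.9 and 40.2 CPM in WT and 10.7, 8.52 and 9.79 CPM in KO (log2 fold change -1.86 ± 0.16, edgeR adjusted p = 0.000241), and was stable, as were SLC16A3, ENO2 and PDK1. Of 12 genes around TXNIP, which restrains glucose uptake, 3 were lower, all stable: TXNIP, ARRDC4 (85.5, 86.0 and 84.5 CPM in WT, 45.1, 41.6 and 45.0 CPM in KO) and KLF10. TXNIP lies on chromosome 1 at 145992435 to 145996600, near the NOTCH2NL entry. Of 15 tested genes of the proximal 1q21.1 interval beside NOTCH2NL, 1 was higher and 1 lower (0 and 1 with GC offsets). The summed level of that list was 902, 958 and 906 CPM in WT and 653, 662 and 636 CPM in KO. TXNIP itself was at 453, 508 and 461 CPM in WT and 232, 221 and 208 CPM in KO. Of the 15 tested genes 13 were not called, so the sum does not show a fall across the interval. A part of the edit in these falls was not tested. Of 23 genes of the hypoxia response NDRG1 (20.2 ± 2.0 to 13.5 ± 1.8 CPM) and PPFIA4 (26.0 ± 1.0 to 8.73 ± 3.56 CPM) were lower and none higher. NDRG1 lost its call with GC offsets or without any library but WT1, and PPFIA4 without WT3 or KO1. With edgeR no member was called among 90 nuclear genes of oxidative phosphorylation (16 at an unadjusted p under 0.05), 24 of cholesterol synthesis (3) and 20 aminoacyl-tRNA synthetases (6), and DESeq2 and limma-voom called 0 of each. Of 30 amino acid response genes edgeR and limma-voom called 0 and DESeq2 called 1, with 1 at an unadjusted p under 0.05.

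Several chaperone genes rose. Of 29 heat shock and unfolded protein response genes 5 were higher (17.2%) and 1 lower, with a median log2 fold change of 0.181; 3 to 5 were higher when 1 library was left out and 5 with GC offsets. Besides HSPH1, HSPA8, the constitutive Hsp70, rose from 927 ± 90.3 to 1580 ± 32.3 CPM and HSP90AA1, an Hsp90, from 696 ± 43.1 to 1058 ± 80.3 CPM, and both were stable. DNAJA1, an Hsp40 cochaperone, rose from 265 ± 29.8 to 391 ± 32.1 CPM (not without KO1). HSPA1A, the inducible Hsp70, which has a near-identical copy, went the other way, from 13.1 ± 2.8 to 5.44 ± 0.39 CPM, and was stable. The summed level of the 29 genes was 6530, 6020 and 6720 CPM in WT and 8080, 8180 and 8130 CPM in KO.

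Of 35 splicing factor genes 5 were higher (14.3%) and none lower, with a median log2 fold change of 0.084 and 2 to 8 higher when 1 library was left out. SRSF6 was at 193, 184 and 186 CPM in WT and 281, 296 and 296 CPM in KO (log2 fold change 0.63 ± 0.08, edgeR adjusted p = 0.00145) and TRA2A at 78.2, 84.9 and 85.0 CPM in WT and 115, 113 and 124 CPM in KO, both stable. Some genes of the translation machinery fell: 20 of 82 cytosolic ribosomal protein genes were lower (24.4%) and none higher, 80 of the 82 had a negative fold change (median log2 -0.266), and 1 to 19 were lower when 1 library was left out; RPS15 (830 ± 36.3 to 559 ± 50.0 CPM) was stable. EEF1A2, the elongation factor of mature neurons, fell from 271, 303 and 301 CPM to 180, 193 and 164 CPM, and GAS5, a host gene of small nucleolar RNAs, from 439, 379 and 421 CPM to 296, 272 and 265 CPM, both stable. Of 43 proteasome subunit genes edgeR, DESeq2 and limma-voom called 0, with 3 at an unadjusted p under 0.05, and 1 of 76 mitochondrial ribosomal protein genes was higher.

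Of 38 antigen presentation and interferon response genes 5 were lower (13.2%) and 1 higher, with a median log2 fold change of -0.27 and 1 to 6 lower when 1 library was left out. Apart from IRAK4, the lower ones were HLA-E (33.6 ± 5.2 to 18.6 ± 2.0 CPM, not without WT3), HLA-B (28.7 ± 5.3 to 15.9 ± 2.0 CPM, not without WT2, WT3 or KO1), HLA-C (45.7 ± 6.5 to 28.5 ± 3.5 CPM, not without WT2, WT3, KO1 or KO3) and TAP2, a peptide transporter subunit (4.89 ± 0.56 to 2.18 ± 0.49 CPM, not without any library but WT1, and named after its value was seen). HLA genes are alike and vary between people, and their reads can be lost or shared among them. Among 45 cilium genes 4 were higher and none lower, and CFAP44, a gene of motile cilia, rose from 15.9 ± 2.3 to 27.2 ± 1.3 CPM (not without WT3 or KO1); no more than 2 were higher when 1 library was left out.

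The enzymes and complexes that silence genes were looked at beside the near-absent genes. Of 31 genes of DNA methylation and heterochromatin edgeR and limma-voom called 0 and DESeq2 called 2, with 8 at an unadjusted p under 0.05. Of 37 genes of polycomb and trithorax complexes all 3 tools called 0, with 4 at an unadjusted p under 0.05. When 1 library was left out edgeR called at most 4 of the former and 2 of the latter, all higher. A missed threshold does not show that their levels were equal. Of 32 mitosis genes 2 were higher, but 16 were higher without WT1 and 0 without WT3 or any of the KO libraries, and 30 of the 32 had a positive fold change.

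Markers of the labelled tissue were present in both groups. PAX6, a factor of cortical radial glia, was at 221, 125 and 185 CPM in WT and 271, 234 and 205 CPM in KO and was not called. EMX1, EMX2, LHX2, SOX2, DCX and TBR1, further markers of cortical progenitors and neurons, were present in all 6 libraries and not called. Other such markers were called: of 18 radial glia genes 4 were lower (22.2%) and 0 higher, with a median log2 fold change of 0.008. Of 22 neuron genes 3 were lower (13.6%) and 0 higher, with a median of -0.138. With GC offsets 3 radial glia and 0 neuron genes were lower, and 0 of either list were higher. When 1 library was left out 0 to 3 of each list were lower, and 0 to 3 radial glia and 0 to 1 neuron genes were higher. Without WT1 3 radial glia genes were higher and 2 lower. The pluripotency genes POU5F1 and NANOG had at most 1 count in any library, and HBA1, HBG1, SOX17 and T, markers of blood, endoderm and mesoderm, were at 0 in all 6. Other blood and microglia markers had few counts: PTPRC had 10, 8 and 3 in WT and 11, 19 and 15 in KO, AIF1 10, 2 and 11 in WT and 1, 4 and 3 in KO, and HBG2 at most 4 in any library. WT1 was the highest WT library in EMX1 and LHX2, while it was the lowest in the summed markers of the cortical hem and choroid plexus, at 546 CPM against 2730 and 1600 CPM in the other WT libraries and 2110, 5300 and 4190 CPM in KO. TTR, the transthyretin gene of the choroid plexus, was not called. The list of mesoderm and endoderm markers, which also holds TTR, had a similar course over the libraries. Its sum was 274, 2130 and 1080 CPM in WT and 1350, 4240 and 3460 CPM in KO. TTR may therefore carry much of both sums. The 21 genes of the cortical hem and choroid plexus had 3 higher (14.3%) and 0 lower, with a median log2 fold change of 0.776. Between 0 and 5 of them were higher when 1 library was left out. The eye field and retina list had 3 higher and 1 lower of 10 tested genes, with a median of 0.92. Its counts ran from 1 to 3 higher and 0 to 1 lower when 1 library was left out. Of 20 tested genes of the diencephalon, midbrain and hindbrain list 1 was lower (5.0%) and 0 higher. The median of that list was -0.774, and 18 of the 20 had a negative fold change. Between 0 and 3 of the 20 were lower when 1 library was left out.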

How the data were processed

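RNA was measured in 3 KO and 3 WT libraries made with a strand-specific kit from poly(A)-selected RNA, per the labels' protocols. The raw read counts per gene were deposited by the authors. Per the submitters' processing notes, HTSeq 0.6.1p1, STAR 2.4.0, Trimmomatic 0.36 and Bowtie2 2.3.3.1 were used with the build hg38 (GRCh38), with no role or order given. Whether counting was by strand is not stated. Symbols came from the authors' table, of whose statistics none was used. Positions came from GENCODE 29 on GRCh38.

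Counts of 6 libraries (15381409 to 16382938 each) were filtered with filterByExpr, scaled with TMM and tested with edgeR 4.0.16 (robust quasi-likelihood F test; R 4.3.3), KO against WT, with Benjamini-Hochberg adjustment over 16956 genes and a threshold of 0.05. The test was tried on simulated data. The members and lists were chosen with earlier results of these data known. Named genes are the 15 of smallest p and the 15 of largest fold (at least 5 CPM in each library of the higher group) in each direction, genes near absent in one group, up to 4 called members of a list or family in each direction, Notch genes, cell type markers and runs of 3 or more neighbours; DOCK11, MORC4, AIFM1, ZNF718, PBX3, TUBB2A and TAP2 were added after their values were seen. Alternatives were other scalings, filters, DESeq2 1.42.0, limma-voom (limma 3.58.1), a replicate block and leaving out each library. The GC offsets were added after seeing the data. They came from a smoothed curve (lowess, span 0.3) of each library's log2 deviations against GC content. Reads of gene copies, overlapping genes and antisense pairs may be shared. Intervals cover counting error only.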

Additional observations from a re-analysis of the deposited data

How the results depend on the processing

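The number of genes called in KO against WT was 932. The count was 1409 (612 higher, 797 lower) with DESeq2 and 2155 (957 higher, 1198 lower) without a filter on low counts. It ranged from 224 to 1440 when 1 library was left out, with 94 to 661 higher and 127 to 779 lower. Other scalings, limma-voom, the test without robust estimation, the stricter filter and the GC offsets kept the counts within 1.5 times. The split of calls moved from 42.0% higher to 49.9% with library size alone and 47.4% with GC offsets. The labels do not say that replicate numbers mark a batch. Deviations of same-numbered libraries correlated at 0.216, -0.113 and 0.126, which cannot decide it with 3 libraries per group. With the replicate block 431 genes were higher and 468 lower. Of 334 named results none reversed its direction under the alternatives run. At this depth genes of few counts, such as NOTCH2NL, could not be tested.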
